A study of Homo sapiens with 10 samples.

Results

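Messenger RNA of 8 adhesion genes was followed across RNA-seq libraries of PC3, an established human prostate cancer cell line. The genes were ITGA2, ITGA3, ITGA6, ITGB1 and ITGB4, which encode integrin chains, LAMA3 and LAMB3, which encode chains of laminin-332, and COL17A1, which encodes a hemidesmosomal collagen. They were chosen by name, with earlier results of these data known. All 8 were found among the 57445 gene identifiers of the count tables and passed the filter on low counts. The series holds 10 libraries, 2 in each of 5 groups. Cells of the RNF2 shRNA1 and RNF2 shRNA2 groups stably carried a short hairpin RNA that the labels name as one against RNF2, a name that the RNF2 level given below goes against in RNF2 shRNA2. RNF2 encodes a catalytic subunit of Polycomb repressive complex 1. In the PRT4165 and GW-516 groups the cells were treated with the compound of that name for 48 hours, at doses that the labels do not give. In the Scramble group the cells stably carried a scrambled hairpin. All groups were grown in DMEM/F-12 medium with serum. PRT4165 is known as an inhibitor of the ubiquitin ligase activity of Polycomb repressive complex 1. The labels give no vehicle group, so effects of vehicle, of carrying a hairpin and of separate culture cannot be told apart from those of a compound in a comparison with Scramble.

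Integrins are pairs of an alpha and a beta chain that tie the cell's skeleton to the matrix outside. Laminin-332, which holds the chains encoded by LAMA3 and LAMB3, is an anchoring protein of the basement membrane, and epithelial cells hold on to it through the integrins alpha3 beta1 and alpha6 beta4. In a hemidesmosome, alpha6 beta4 is joined by collagen XVII and, inside the cell, by plectin and the protein made from DST, which link it to keratin filaments. In the prostate several of these genes are known as products of basal cells.

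Counts assigned to genes summed to between 65877850 and 108380198 per library. RNF2 stood at 12.1 and 11.96 CPM (counts scaled to library size with TMM factors) in RNF2 shRNA1, 33.5 and 35.3 CPM in RNF2 shRNA2, 29.1 and 29.1 CPM in PRT4165, 26.9 and 28.1 CPM in GW-516, and 30.6 and 28.3 CPM in Scramble. The RNF2 transcript was thus low in RNF2 shRNA1 and not in the other hairpin group, which goes against its label. In those libraries BMI1, another subunit of the same complex, stood at 53.0 and 61.6 CPM, against 251.5 and 255 CPM in Scramble. They are called the libraries labelled RNF2 shRNA2 from here on. Replicates of Scramble, RNF2 shRNA1 and GW-516 differed by little more than sampling noise. With counts halved, because each end of a fragment was counted, their chi-square per degree of freedom was 1.09 in RNF2 shRNA1, 1.10 in GW-516 and 1.08 in Scramble, against 3.44 in PRT4165 and 6.11 in the libraries labelled RNF2 shRNA2. The labels do not say that replicates came from separate cultures, so SDs and p-values measure the spread between these libraries, which may be technical. For p-values and standard errors that spread was shared by all groups. It was also drawn towards that of other genes (median prior 18.6 against 5 residual degrees of freedom).

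Markers of simple epithelium (KRT8, KRT18, KRT19 and EPCAM) were high in every library, with summed levels between 1139 and 1551 CPM. Among keratins of basal prostate epithelium, KRT5, KRT14 and KRT17 did not bear out the word basal, as each stayed at or under 0.170 CPM. KRT15 was expressed in every library. TP63 lay between 0.318 and 1.39 CPM. KRT15, which made up nearly all of the summed basal markers, lay between 16.9 and 50.02 CPM. The summed basal markers were 50.5 to 51.5 CPM in RNF2 shRNA1, 17.6 to 18.9 CPM in the libraries labelled RNF2 shRNA2, 27.1 to 27.8 CPM in PRT4165, 36.2 to 37.5 CPM in GW-516 and 22.0 to 22.5 CPM in Scramble. Of luminal markers, KLK3 stayed at or under 0.0286 CPM and KLK2 was at 0, haematopoietic markers summed to at most 0.533 CPM with CD3E at 0, and stromal markers summed to 15.4 to 47.1 CPM, nearly all of it COL1A1. The COL1A1-led sum was 46.4 to 47.1 CPM in GW-516 and 26.4 to 27.1 CPM in Scramble. The part of these markers in the results below was not tested. In bulk RNA, fewer cells of a type and less RNA per cell cannot be told apart.

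Sequence around annotated start sites of ITGA2, LAMA3 and LAMB3 is shown because these genes encode the collagen-binding alpha chain and both laminin chains among the 8. The stretches come from RefSeq (build GRCh38.p14), each with 250 bases before and 50 bases after a start site, written 5′ to 3′ on the strand of the gene. Of the 8 genes 6 had an entry, with 10 start sites in all, and ITGA3 and ITGB4 had none. Capitals mark matches, on either strand, to the AP-1 motif TGANTCA, the TEAD motif GGAATG or the GC box GGGCGG. The count tables use another build, GRCh37, and hold no measure at these sites. A gene's counts pool all its annotated exons, so a stretch need not lie at the start of every counted transcript.
ITGA2, chr5:52989102-52989401, plus strand: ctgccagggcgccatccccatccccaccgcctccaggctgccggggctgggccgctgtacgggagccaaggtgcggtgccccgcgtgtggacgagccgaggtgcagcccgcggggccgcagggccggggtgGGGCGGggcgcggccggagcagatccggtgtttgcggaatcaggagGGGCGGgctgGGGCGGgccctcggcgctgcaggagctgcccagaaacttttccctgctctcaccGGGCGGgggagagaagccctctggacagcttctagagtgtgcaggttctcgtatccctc
LAMA3, chr18:23872770-23873069, plus strand: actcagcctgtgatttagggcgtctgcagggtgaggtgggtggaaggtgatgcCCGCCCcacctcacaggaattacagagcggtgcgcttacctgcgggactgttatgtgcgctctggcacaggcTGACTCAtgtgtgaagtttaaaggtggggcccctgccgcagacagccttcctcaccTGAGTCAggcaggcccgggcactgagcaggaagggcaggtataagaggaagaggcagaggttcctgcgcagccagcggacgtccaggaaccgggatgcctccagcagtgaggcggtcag
LAMB3, start site 1, chr1:209652376-209652675, minus strand: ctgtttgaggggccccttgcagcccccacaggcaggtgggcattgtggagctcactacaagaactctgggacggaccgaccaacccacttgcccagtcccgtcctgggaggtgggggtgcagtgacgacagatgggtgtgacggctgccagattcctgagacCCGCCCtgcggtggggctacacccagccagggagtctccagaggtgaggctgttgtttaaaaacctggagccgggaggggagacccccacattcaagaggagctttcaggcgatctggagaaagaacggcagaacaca
LAMB3, start site 3, chr1:209651325-209651624, minus strand: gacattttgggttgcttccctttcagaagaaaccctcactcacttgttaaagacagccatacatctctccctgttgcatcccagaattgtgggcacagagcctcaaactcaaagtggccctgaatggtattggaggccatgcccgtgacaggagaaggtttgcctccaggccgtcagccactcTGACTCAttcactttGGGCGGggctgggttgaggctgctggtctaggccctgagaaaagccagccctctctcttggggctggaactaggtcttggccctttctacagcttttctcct

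The ITGA2 stretch held 4 GC boxes and neither other motif. In the LAMA3 stretch there were AP-1 matches at positions -125 and -69 from its start site and a GC box at -197. LAMB3 start site 3 had an AP-1 match at -67 next to a GC box at -52, and start site 1 had a GC box at -88. Among 35116 stretches of the same length over all genes, 7.71% held an AP-1 match, 14% a TEAD match and 45% a GC box. The TEAD motif was found among the members in ITGB1, and the COL17A1 stretch held none of the 3 motifs. These are matches of letters, not measured binding.

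In the count tables the genes are given on GRCh37 with all their annotated exons counted together. ITGA2 lies at chr5:52285156-52390609 (plus strand), ITGA3 at chr17:48133332-48167845 (plus), ITGA6 at chr2:173292082-173371181 (plus), ITGB1 at chr10:33189247-33294720 (minus) and ITGB4 at chr17:73717408-73753899 (plus). LAMA3 lies at chr18:21269407-21535030 (plus), LAMB3 at chr1:209788215-209825811 (minus) and COL17A1 at chr10:105791044-105845760 (minus). Levels were also taken per kilobase of counted exon. These lengths cover all annotated exons, whether or not PC3 uses them, so orders and ratios between genes depend on the annotation. On this scale ITGB1 had the highest level in Scramble at 63.3 CPM per kb. It was followed by ITGA6 at 46.7, ITGA3 at 28.0, ITGA2 at 12.04, LAMA3 at 10.8, ITGB4 at 8.48, LAMB3 at 4.78 and COL17A1 at 0.391 CPM per kb. In GW-516 the order was ITGA6 at 71.5, ITGB1 at 71.2, ITGA2 at 49.0, ITGA3 at 34.8, ITGB4 at 32.5, LAMB3 at 14.7, LAMA3 at 13.4 and COL17A1 at 0.855 CPM per kb. ITGA2 thus stood above ITGA3, and LAMB3 above LAMA3, in GW-516, and below them in Scramble. The summed level of ITGA2, ITGA3 and ITGA6 was 69.3% of all 18 integrin alpha genes in RNF2 shRNA1, 72.0% in the libraries labelled RNF2 shRNA2, 67.0% in PRT4165, 61.8% in GW-516 and 67.9% in Scramble. COL17A1 was scarce throughout, with 136 to 486 raw counts per library, so its values carry the widest error.

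**Figure D1:**
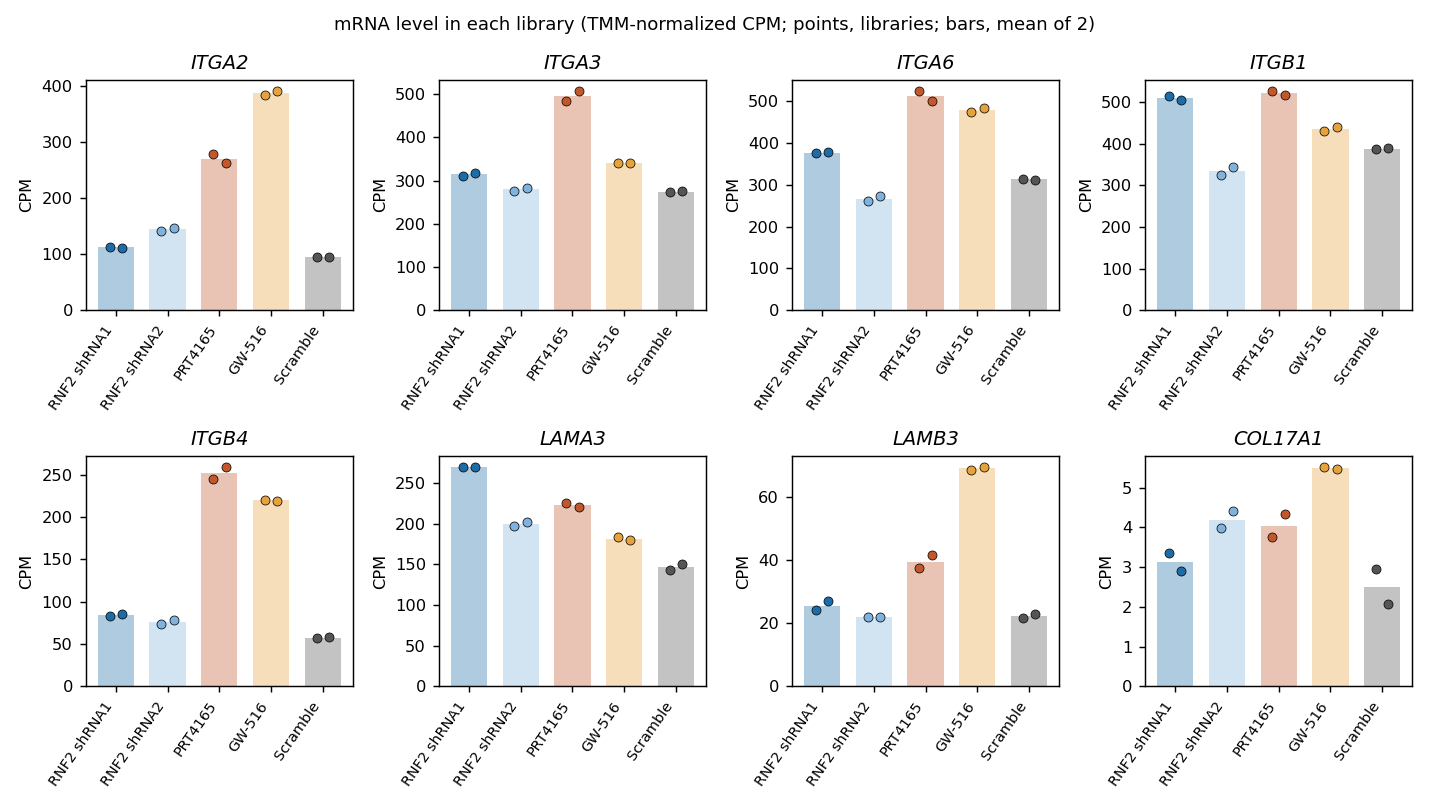
Level of each of the 8 genes in every library, as TMM-normalized CPM on a linear axis from 0 (points, libraries; bars, mean of 2 libraries; colours, groups). ITGA2 and ITGB4 stand far higher in PRT4165 and GW-516 than in Scramble, LAMB3 stands highest in GW-516 at 68.7 and 69.6 CPM, and LAMA3 stands highest in RNF2 shRNA1 at 269 CPM in both libraries.

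ITGA2, the alpha2 chain of a collagen receptor, had 113 and 111 CPM in RNF2 shRNA1, 142 and 146 CPM in the libraries labelled RNF2 shRNA2, 279 and 263 CPM in PRT4165, 383 and 392 CPM in GW-516, and 94.9 and 95.6 CPM in Scramble. Scramble was lowest and GW-516 highest, and no neighbouring groups in the order overlapped. Against Scramble, ITGA2 was 4.07-fold higher in GW-516 (log2 fold change 2.03 ± 0.033 SE, edgeR adjusted p = 6.0e-24) and 2.84-fold higher in PRT4165 (1.51 ± 0.033, adjusted p = 4.3e-21). It was higher by 0.60 ± 0.033 in the libraries labelled RNF2 shRNA2 and by 0.23 ± 0.033 in RNF2 shRNA1, on the log2 scale. Among 10731 genes averaging 5 CPM or more over all libraries, ITGA2 was number 32 from the highest log2 fold change in both compound comparisons.

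ITGA3, the alpha3 chain of a laminin-332 receptor, had 312 and 318 CPM in RNF2 shRNA1, 277 and 282 CPM in the libraries labelled RNF2 shRNA2, 485 and 508 CPM in PRT4165, 342 and 340.3 CPM in GW-516, and 273 and 275 CPM in Scramble. PRT4165 stood above all other groups. Its log2 fold change against Scramble was 0.86 ± 0.029 in PRT4165, 0.32 ± 0.028 in GW-516 and 0.20 ± 0.029 in RNF2 shRNA1, each past the threshold. For the libraries labelled RNF2 shRNA2 it was 0.029, with a 95% interval of -0.030 to 0.088 and an edgeR adjusted p = 0.447.

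ITGA6, the alpha6 chain that pairs with beta4 in hemidesmosomes and with beta1 elsewhere, had 375 and 379 CPM in RNF2 shRNA1, 259.9 and 272 CPM in the libraries labelled RNF2 shRNA2, 525 and 499 CPM in PRT4165, 474 and 484 CPM in GW-516, and 314 and 312 CPM in Scramble. Both compound groups were high, and the libraries labelled RNF2 shRNA2 lay below Scramble without overlap. The log2 fold change against Scramble was 0.71 ± 0.030 in PRT4165, 0.61 ± 0.030 in GW-516 and 0.27 ± 0.030 in RNF2 shRNA1. In the libraries labelled RNF2 shRNA2 it was -0.23 ± 0.030 (edgeR adjusted p = 5.5e-07).

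ITGB1, the beta1 chain shared by most matrix-binding integrins, had 515 and 506 CPM in RNF2 shRNA1, 326 and 345 CPM in the libraries labelled RNF2 shRNA2, 528 and 518 CPM in PRT4165, 432 and 440.5 CPM in GW-516, and 386 and 389 CPM in Scramble. Its groups spanned the narrowest range of the 8 genes, 1.56-fold between the highest and the lowest mean. PRT4165 and RNF2 shRNA1 were highest, and the libraries labelled RNF2 shRNA2 were lowest. Against Scramble the log2 fold change was 0.40 ± 0.028 in RNF2 shRNA1, -0.21 ± 0.028 in the libraries labelled RNF2 shRNA2, 0.43 ± 0.028 in PRT4165 and 0.17 ± 0.028 in GW-516, each past the threshold.

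ITGB4, the beta4 chain found only with alpha6, had 83.2 and 85.0 CPM in RNF2 shRNA1, 73.2 and 78.6 CPM in the libraries labelled RNF2 shRNA2, 244 and 259 CPM in PRT4165, 221 and 219 CPM in GW-516, and 56.8 and 57.9 CPM in Scramble. The compound groups lay far above the hairpin groups, and Scramble was lowest, with no overlap between any of them. ITGB4 was 4.39-fold higher in PRT4165 than in Scramble (log2 fold change 2.13 ± 0.038 SE, edgeR adjusted p = 4.9e-23) and 3.83-fold higher in GW-516 (1.94 ± 0.038, adjusted p = 2.7e-22). It was also higher in RNF2 shRNA1, by 0.55 ± 0.038, and in the libraries labelled RNF2 shRNA2, by 0.41 ± 0.038. By log2 fold change it was number 13 of the 10731 ranked genes in PRT4165 and number 36 in GW-516. ITGB4 overlaps GALK1 on the opposite strand, which had at most 1958 counts in a library; counting used strand.

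Against Scramble, the log2 fold change of ITGB4 was above that of ITGB1 in all 4 groups. The ratio of ITGB4 to ITGB1, per kb, was 0.149 ± 0.00406 in RNF2 shRNA1, 0.205 ± 0.00216 in the libraries labelled RNF2 shRNA2, 0.436 ± 0.0233 in PRT4165, 0.457 ± 0.00904 in GW-516 and 0.134 ± 0.00132 in Scramble (SD, n = 2 libraries each). Of the summed level of 8 integrin beta genes, ITGB4 made up 12.3% in RNF2 shRNA1, 15.6% in the libraries labelled RNF2 shRNA2, 27.6% in PRT4165, 27.9% in GW-516 and 10.7% in Scramble. ITGB1 still made up most of it, with 63.2% in PRT4165, 61.0% in GW-516 and 80.1% in Scramble. Among the alpha chains, the ratio of ITGA2 to ITGA3 was 0.677 ± 0.0508 in PRT4165, 1.41 ± 0.0267 in GW-516 and 0.431 ± 0.000414 in Scramble. It was 0.441 ± 0.012 in RNF2 shRNA1 and 0.639 ± 0.00464 in the libraries labelled RNF2 shRNA2. No test of the ratios was made.

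**Figure D2:**
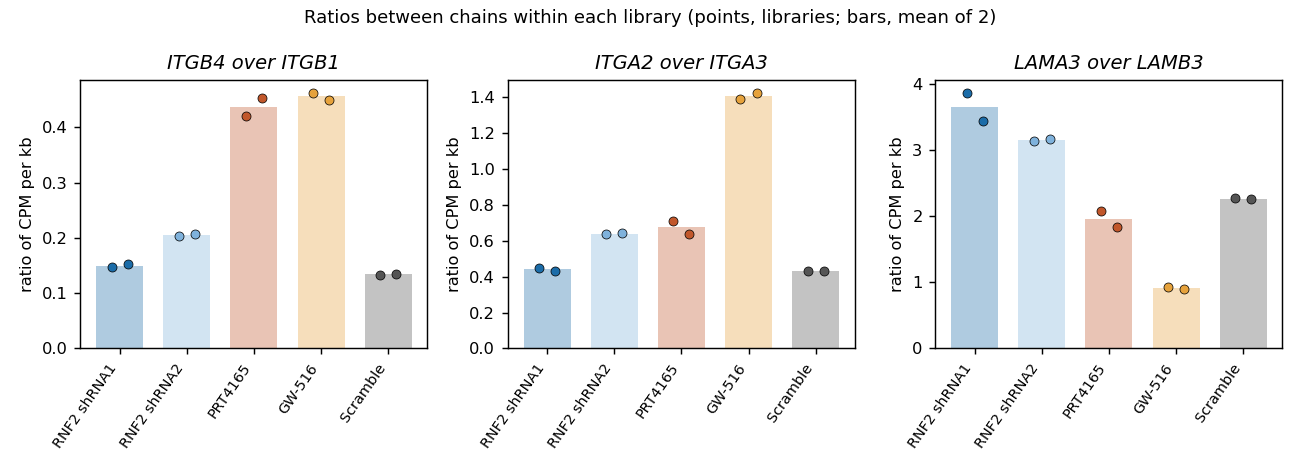
Ratios between chains within each library, from CPM per kilobase, on linear axes from 0 (points, libraries; bars, mean of 2 libraries). ITGB4 over ITGB1 is 0.420 to 0.463 in the 4 compound libraries and 0.133 to 0.135 in Scramble, and LAMA3 over LAMB3 is below 1 in GW-516 alone.

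LAMA3, the alpha3 chain of laminin-332 that the integrins bind, had 269 CPM in both libraries of RNF2 shRNA1, 198 and 202 CPM in the libraries labelled RNF2 shRNA2, 225 and 221 CPM in PRT4165, 183 and 179.8 CPM in GW-516, and 143 and 150.1 CPM in Scramble. RNF2 shRNA1 was highest and Scramble lowest, and no groups overlapped. LAMA3 had the largest log2 fold change of the 8 genes in RNF2 shRNA1, at 0.88 ± 0.031 (1.84-fold, edgeR adjusted p = 1.9e-17), and was number 265 of the ranked genes there. It was also higher by 0.45 ± 0.031 in the libraries labelled RNF2 shRNA2, 0.61 ± 0.031 in PRT4165 and 0.31 ± 0.031 in GW-516.

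LAMB3, the beta3 chain, had 24.1 and 27.1 CPM in RNF2 shRNA1, 21.9 and 22.1 CPM in the libraries labelled RNF2 shRNA2, 37.6 and 41.6 CPM in PRT4165, 68.7 and 69.6 CPM in GW-516, and 21.8 and 22.99 CPM in Scramble. GW-516 was highest, PRT4165 came next, and the libraries labelled RNF2 shRNA2 overlapped Scramble. LAMB3 was 3.09-fold higher in GW-516 than in Scramble (log2 fold change 1.63 ± 0.056 SE, edgeR adjusted p = 3.2e-17) and 1.77-fold higher in PRT4165 (0.82 ± 0.058, adjusted p = 3.6e-11). In RNF2 shRNA1 it was higher by 0.19 ± 0.060 (edgeR adjusted p = 0.0086). The LAMB3 call there was lost with the near-identical pairs summed (0.20, adjusted p = 0.083), without RNF2 shRNA1 replicate 2 (0.12, adjusted p = 0.168) and without Scramble replicate 1 (0.17, adjusted p = 0.081). Its log2 fold change was -0.025 in the libraries labelled RNF2 shRNA2, with a 95% interval of -0.15 to 0.098 and an adjusted p = 0.773.

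LAMA3 and LAMB3 did not keep a fixed proportion. The ratio of LAMA3 to LAMB3, per kb, was 3.66 ± 0.303 in RNF2 shRNA1, 3.15 ± 0.0286 in the libraries labelled RNF2 shRNA2, 1.96 ± 0.165 in PRT4165, 0.910 ± 0.0188 in GW-516 and 2.27 ± 0.00416 in Scramble (SD, n = 2 libraries each). GW-516 was the group in which the LAMB3 level per kb exceeded that of LAMA3. Whether a ratio lies above or below 1 depends on the annotated exon lengths.

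COL17A1, the hemidesmosomal collagen XVII, had 3.36 and 2.90 CPM in RNF2 shRNA1, 3.97 and 4.40 CPM in the libraries labelled RNF2 shRNA2, 3.76 and 4.33 CPM in PRT4165, 5.52 and 5.47 CPM in GW-516, and 2.96 and 2.07 CPM in Scramble. GW-516 stood above the rest, PRT4165 and the libraries labelled RNF2 shRNA2 overlapped, and so did RNF2 shRNA1 and Scramble. Against Scramble it was higher by 1.12 ± 0.14 in GW-516, 0.68 ± 0.15 in PRT4165 and 0.74 ± 0.15 in the libraries labelled RNF2 shRNA2, on the log2 scale. In RNF2 shRNA1 the log2 fold change was 0.31, with a 95% interval of -0.0072 to 0.63 (edgeR adjusted p = 0.093). Without Scramble replicate 1 that value was 0.61 (adjusted p = 0.0073), and without Scramble replicate 2 it was 0.10.

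Of the other parts of the hemidesmosome and its anchorage, PLEC (plectin), DST, CD151 (a membrane protein that associates with laminin-binding integrins) and COL7A1 (the anchoring fibril collagen) were described. Higher than Scramble were 2 of these 4 in RNF2 shRNA1, 3 in the libraries labelled RNF2 shRNA2, 4 in PRT4165 and 4 in GW-516, with none lower. Of all genes tested, 26.2% were higher in RNF2 shRNA1, 21.1% in the libraries labelled RNF2 shRNA2, 19.9% in PRT4165 and 26.5% in GW-516. PLEC stood at 101 and 99.8 CPM in RNF2 shRNA1, 115 and 108 CPM in the libraries labelled RNF2 shRNA2, 99.9 and 113 CPM in PRT4165, 101 and 101 CPM in GW-516, and 80.5 and 73.6 CPM in Scramble. Its log2 fold changes lay between 0.38 and 0.54. DST rose by 0.47 in RNF2 shRNA1, 0.66 in PRT4165 and 0.47 in GW-516, while in the libraries labelled RNF2 shRNA2 its log2 fold change was 0.045 (edgeR adjusted p = 0.277). CD151 had 235 ± 0.693 CPM in RNF2 shRNA1 and 235 ± 1.8 CPM in Scramble, and rose by 0.20 in the libraries labelled RNF2 shRNA2, 0.34 in PRT4165 and 0.39 in GW-516. COL7A1 rose by 0.42 in the libraries labelled RNF2 shRNA2, 0.27 in PRT4165 and 0.63 in GW-516, and its log2 fold change was 0.073 in RNF2 shRNA1 (adjusted p = 0.4295).

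In PRT4165 all 8 genes were higher than in Scramble, led by ITGB4 and ITGA2, where 41.6% of the 18478 genes tested were called, 19.9% higher and 21.7% lower. The median log2 fold change of the 8 was 0.77, and that of all genes tested -0.012. In GW-516 all 8 were higher as well, where 55.5% of tested genes were called, 26.5% higher and 29% lower, with a median of 0.87 against -0.0025 for all genes. There ITGA2, ITGB4 and LAMB3 led. Both comparisons use the same Scramble libraries and are not independent. The 8 genes were chosen with earlier results of these data known, so these counts and medians only describe them.

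RNF2 shRNA1, the group with a low RNF2 transcript, had 7 of the 8 genes higher than Scramble and none lower, the exception being COL17A1. In that comparison 54.7% of tested genes were called, 26.2% higher and 28.6% lower, and the median log2 fold change was 0.29 for the members and -0.015 for all genes. In the libraries labelled RNF2 shRNA2, ITGA2, ITGB4, LAMA3 and COL17A1 were higher and ITGA6 and ITGB1 lower, where 42.1% of tested genes were called, 21.1% higher and 21% lower. The median was 0.22 for the members and 0.0086 for all genes. These comparisons use the same Scramble libraries too.

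**Figure D3:**
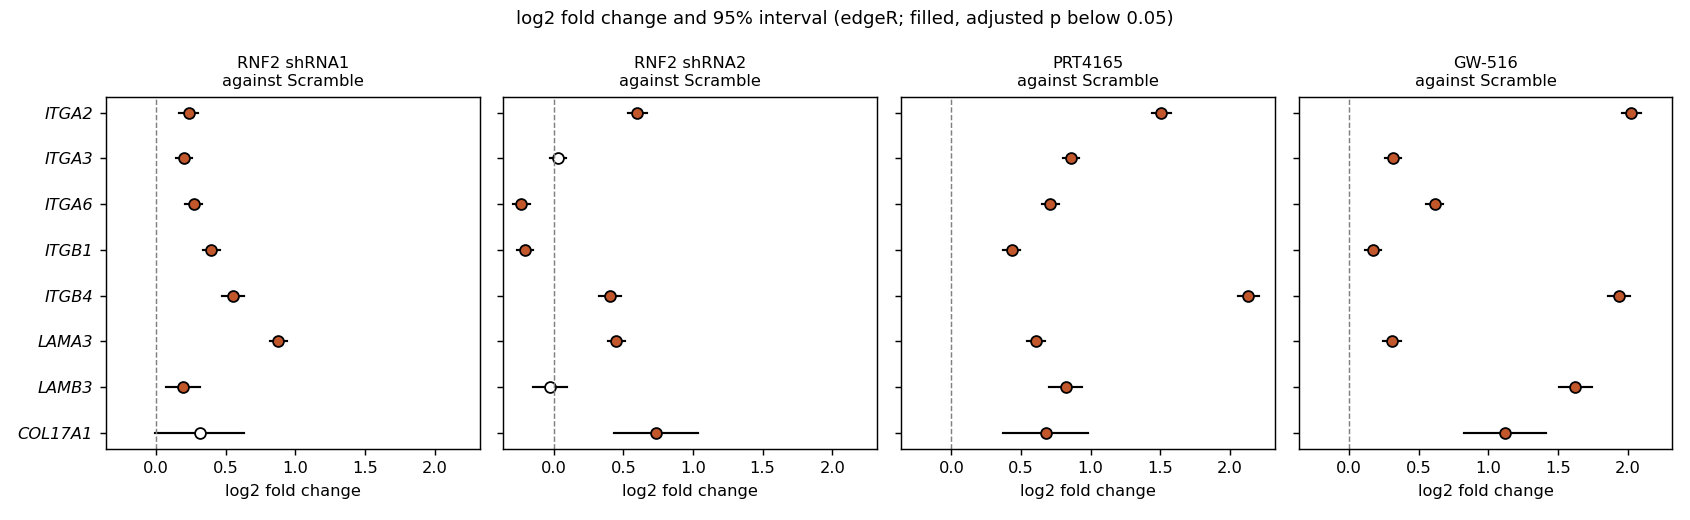
Log2 fold change of each gene against Scramble in the 4 other groups (points, edgeR estimates; lines, 95% intervals; filled, adjusted p below 0.05; dashed line, no change). All points lie right of 0 in PRT4165 and GW-516, with ITGB4 at 2.13 and ITGA2 at 2.03 the farthest in each. In the libraries labelled RNF2 shRNA2, ITGA6 and ITGB1 are called left of 0, and LAMB3 at -0.025 lies left of 0 without a call.

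Between the hairpin groups all 8 genes passed the test, where 59.2% of tested genes were called, 29.9% higher and 29.2% lower in the libraries labelled RNF2 shRNA2. The median log2 fold change was -0.19 for the members and 0.012 for all genes. ITGA2 and COL17A1 were higher there than in RNF2 shRNA1, by 0.37 ± 0.032 and 0.42 ± 0.14 on the log2 scale, and the other 6 were lower. ITGB1 was lower by the most, with a log2 fold change of -0.61 ± 0.028 (edgeR adjusted p = 3.2e-15), followed by ITGA6 at -0.50 ± 0.030 and LAMA3 at -0.43 ± 0.030. The COL17A1 call (adjusted p = 0.013) was lost with pairs summed (0.40, adjusted p = 0.053), without RNF2 shRNA1 replicate 2 (0.31, adjusted p = 0.161) and without RNF2 shRNA2 replicate 2 (0.32, adjusted p = 0.117). LAMB3, at -0.22 ± 0.059, was no longer called without RNF2 shRNA1 replicate 2 (-0.14, adjusted p = 0.096). ITGB4, at -0.15 ± 0.037, stood at -0.22 without RNF2 shRNA2 replicate 2.

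Between the compounds all 8 genes passed as well, where 41.1% of tested genes were called, 18.1% higher and 23% lower in GW-516 than in PRT4165. The median log2 fold change was -0.15 for the members and -0.0019 for all genes. LAMB3 (0.81 ± 0.053), ITGA2 (0.52 ± 0.031) and COL17A1 (0.45 ± 0.13) were higher in GW-516 on the log2 scale. ITGA3 (-0.54 ± 0.028), LAMA3 (-0.30 ± 0.030), ITGB1 (-0.26 ± 0.028), ITGB4 (-0.20 ± 0.035) and ITGA6 (-0.096 ± 0.029) were lower in GW-516. ITGA6 lost its call (adjusted p = 0.010) with the filter of 1 CPM (-0.063, adjusted p = 0.075), with pairs summed (-0.10, adjusted p = 0.246), without GW-516 replicate 1 (-0.079, adjusted p = 0.161) and without PRT4165 replicate 1 (-0.057, adjusted p = 0.177). COL17A1 lost its call without GW-516 replicate 1 (0.44, adjusted p = 0.055) and without PRT4165 replicate 1 (0.35, adjusted p = 0.121).

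**Figure D4:**
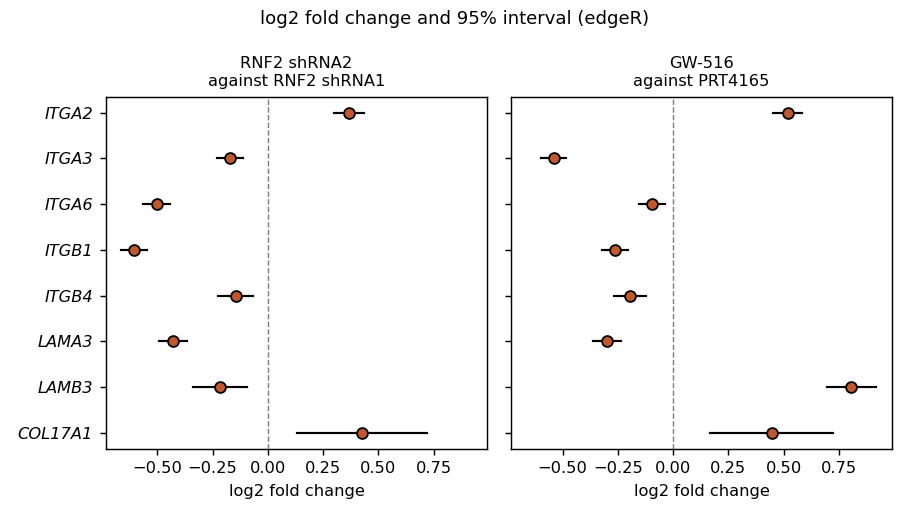
Log2 fold change between the hairpin groups (left, libraries labelled RNF2 shRNA2 over RNF2 shRNA1) and between the compounds (right, GW-516 over PRT4165), with 95% intervals (edgeR; filled, adjusted p below 0.05; dashed line, no change). ITGA2 and COL17A1 lie right of 0 in both panels, LAMB3 at 0.81 lies right of 0 between compounds, and ITGB1 at -0.61 lies farthest left between hairpins.

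Other integrin chains, 16 of 21 of which could be tested, were also compared with Scramble. In PRT4165 6 were higher and none lower, or 37.5% higher against 19.9% of all genes (37.5% against 41.6% in either direction). In GW-516 10 were higher and none lower, or 62.5% higher against 26.5% of all genes (62.5% against 55.5% in either direction). ITGAM passed the low-count filter only through GW-516 (61 and 50 counts, against 2 and 2 in Scramble). Its direction there was thus fixed by the filter. The median log2 fold change of the 16 was 0.58 in PRT4165 and 0.93 in GW-516, where that of all genes was -0.012 and -0.0025. Many of the 16 were scarce, at or under 1.74 CPM in every group mean, so counts and medians rest in part on low levels. ITGAE, at a mean of 16.1 CPM in GW-516 and 16.8 CPM in Scramble, did not rise in GW-516. ITGA5, the alpha5 chain of the fibronectin receptor, had 416 and 424 CPM in PRT4165, 558 and 562 CPM in GW-516, and 209.5 and 210.3 CPM in Scramble. ITGAV and ITGB5, chains of vitronectin receptors, rose by 1.06 and 0.79 in PRT4165 and by 0.89 and 0.87 in GW-516. ITGB3 was also called higher in both, at 1.06 CPM in PRT4165, 1.74 CPM in GW-516 and 0.198 CPM in Scramble. Of the same 16, 5 were higher and 5 lower in RNF2 shRNA1, or 62.5% called in either direction against 54.7% of all genes. ITGA11 passed the filter only through RNF2 shRNA1 (24 and 30 counts, against 4 and 2 in Scramble), so its direction there was fixed as well. In the libraries labelled RNF2 shRNA2 none of the 16 was higher and 5 were lower, or 31.2% lower against 21% of all genes. In either direction it was 31.2% against 42.1% there. ITGB5 fell by 0.48 in RNF2 shRNA1 and by 0.31 in the libraries labelled RNF2 shRNA2.

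Of 7 testable laminin chains outside laminin-332, 5 were higher and 1 lower in PRT4165, 5 higher and none lower in GW-516, 5 higher and none lower in RNF2 shRNA1, and none higher and 4 lower in the libraries labelled RNF2 shRNA2. Of all genes, 41.6% were called in PRT4165, 55.5% in GW-516, 54.7% in RNF2 shRNA1 and 42.1% in the libraries labelled RNF2 shRNA2. The median log2 fold change of the 7 was 0.22, 0.28, 0.34 and -0.24 in that order. LAMA4 had 97.5 ± 2.95 CPM in RNF2 shRNA1, 49.2 ± 3.04 CPM in the libraries labelled RNF2 shRNA2, 132 ± 0.804 CPM in PRT4165, 120.0 ± 1.6 CPM in GW-516 and 67.0 ± 1.88 CPM in Scramble. LAMC1, the most common gamma chain, rose by 0.58 in RNF2 shRNA1, 0.34 in PRT4165 and 0.080 in GW-516, and fell by 0.24 in the libraries labelled RNF2 shRNA2. Among 18 testable basement membrane genes the directions were mixed, with 7 higher and 5 lower in PRT4165, 10 higher and 3 lower in GW-516, 7 higher and 4 lower in RNF2 shRNA1, and 5 higher and 5 lower in the libraries labelled RNF2 shRNA2. Against the same shares of all genes, 66.7%, 72.2%, 61.1% and 55.6% of these 18 were called. Their median log2 fold change was 0.044, 0.27, -0.027 and -0.016 in that order. NID1, a linker of laminin and collagen IV, fell by 0.78 in the libraries labelled RNF2 shRNA2, by 0.41 in PRT4165 and by 0.64 in GW-516.

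Of 32 cytoplasmic adaptors and kinases of integrins, 16 were higher and 3 lower in PRT4165, 15 higher and 8 lower in GW-516, 7 higher and 12 lower in RNF2 shRNA1, and 15 higher and 8 lower in the libraries labelled RNF2 shRNA2. Called were 59.4% of them in PRT4165, 71.9% in GW-516, 59.4% in RNF2 shRNA1 and 71.9% in the libraries labelled RNF2 shRNA2, against 41.6%, 55.5%, 54.7% and 42.1% of all genes. Their median log2 fold change was 0.10, 0.099, -0.053 and 0.043 in the same order. TNS4, a tensin that binds integrin beta tails, had 23.1 and 24.1 CPM in PRT4165, 47.3 and 46.1 CPM in GW-516, and 8.99 and 9.00 CPM in Scramble. Its fold was 2.62 in PRT4165 and 5.19 in GW-516. PTK2B, a kinase of the focal adhesion kinase family, was 3.04-fold higher in PRT4165 and 3.14-fold higher in GW-516. FERMT1, the epithelial kindlin that switches integrins on, was at 43.1 CPM in RNF2 shRNA1 and 107.6 CPM in the libraries labelled RNF2 shRNA2. It was at 150.0 CPM in PRT4165, 138 CPM in GW-516 and 105 CPM in Scramble, and was 2.44-fold lower in RNF2 shRNA1 than in Scramble.

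**Figure D5:**
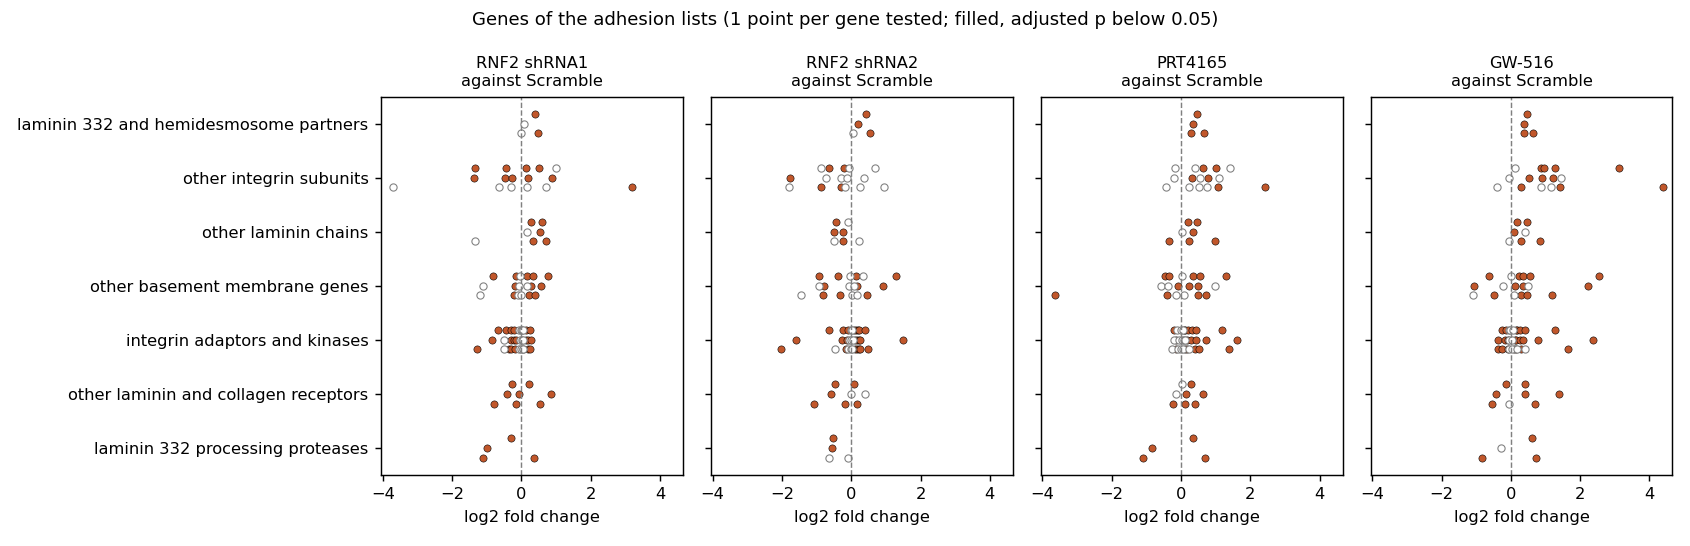
Log2 fold change against Scramble of the tested genes in 7 lists of adhesion genes (1 point per gene; filled, adjusted p below 0.05; dashed line, no change; points are spread up and down within a list only to be seen). The hemidesmosome partners lie at or right of 0 in all 4 panels, and no other integrin chain is called left of 0 in PRT4165 or GW-516.

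Across the 10 libraries the 8 genes did not move as 1 block. The log2 CPM of ITGA2 had a Pearson r of 0.94 with ITGB4 and 0.93 with LAMB3, while LAMA3 had an r of -0.017 with LAMB3 and 0.050 with ITGA2. The libraries fall into 5 groups, so these values mostly describe differences between groups. Searched over 10609 other genes averaging 5 CPM or more, the genes most like each member were SNX33 and AMPD3 for ITGA2 (r of 0.993 and 0.992), TSPAN3 and TENM4 for ITGA3 (0.985 and 0.984), and MBOAT2 and MTSS1 for ITGA6 (0.996 and 0.993). For ITGB1 they were EPN2 and CAV2 (0.992 and 0.991), and for ITGB4 RHOF and SEMA4B (0.997 and 0.985). LAMA3 was most like LTBP1 and PLS3 (0.993 and 0.989), LAMB3 most like ATG9A and TUFT1 (0.991 and 0.989), and COL17A1 most like ATP6AP1 and EFR3B (0.948 and 0.946).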

How the data were processed

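The authors deposited 1 table of raw counts per gene for each of the 10 libraries, with no normalization. Reads were assigned to GENCODE 18 genes by featureCounts 1.4.3-p1 under strand option 2, per the file headers. The recorded command lacks a read-pair option, so both ends of a fragment count. Per the submitters' processing notes, STAR and DESeq2 1.8.1 were among the tools, without a stated role, and the build was hg19 (GRCh37). The treatment of multiply mapped reads is not given in the sources. The headers name the samples with other codes than PC3, RNF2 shRNA2 and GW-516, and groups were taken from the labels.

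Identifiers were matched to symbols by table (51488 of 57445, 89.6%; of 130 list entries 1, PECAM1, was not matched). Counts were tested with edgeR 4.0.16 in R 4.3.3 (TMM factors 0.972 to 1.05, filterByExpr with a minimum count of 10, robust quasi-likelihood fit with a coefficient for each group, 5 residual degrees of freedom). For each of 6 comparisons, two-sided p-values received the Benjamini-Hochberg adjustment over 18478 genes, and calls needed an adjusted p under 0.05. The fit was tested on simulated data. Levels are TMM-normalized CPM; CPM per kb divides by the exon length of the count tables. Values after ± are SDs for levels and standard errors for log2 fold changes. Ratios and shares come from CPM per kb within each library.

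The members and lists were chosen with earlier results of these data known. Named genes were all members, the hemidesmosome partners, up to 3 genes per other list and comparison with the smallest adjusted p at a mean of 5 CPM or more, and the 2 genes most correlated with each member. Some listed genes are not reported here. Named outside this rule, after their values were seen, were ITGB3, ITGAM, ITGA11 and ITGAE. Alternatives changed the tool (DESeq2 1.42.0, limma-voom of limma 3.58.1), the size factors (RLE), the filter (none, or 1 CPM in 2 libraries), the threshold (0.01) or the libraries (compared groups alone, RNF2 shRNA2 left out, near-identical pairs summed, each library left out), or added the replicate number as a block. Figures were drawn with Python 3.11.15 and matplotlib 3.10.9.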

Additional observations from a re-analysis of the deposited data

Results flagged for a closer look

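Effects of opposite sign were found for 2 of the 8 genes in the hairpin groups. Of all genes tested, 54.7% were called in RNF2 shRNA1 against Scramble and 42.1% in the libraries labelled RNF2 shRNA2. Between the hairpin groups 59.2% were called. How many of all genes share the pattern of opposite signs was not counted. ITGA6 was lower than Scramble in the libraries labelled RNF2 shRNA2 and higher in RNF2 shRNA1, and the difference between these effects on the log2 scale was -0.503 (95% interval -0.56 to -0.44, edgeR adjusted p = 2.4e-13). ITGB1 showed the same pattern, with a difference of -0.605 (95% interval -0.66 to -0.55, edgeR adjusted p = 3.2e-15). All 4 libraries of these groups lay on the stated side of both Scramble libraries for both genes. BMI1 was low in the libraries labelled RNF2 shRNA2 and RNF2 low in RNF2 shRNA1; the part of this in the difference was not tested.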

How the results depend on the processing

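Of the recomputed log2 fold changes of the members, 639 kept their direction and their side of the threshold, 15 kept the direction but lost the call, 1 gained a call and 1 reversed. The reversed value was that of LAMB3 in the libraries labelled RNF2 shRNA2 against Scramble, 0.022 without Scramble replicate 2 (edgeR adjusted p = 0.863), with a range from -0.069 to 0.022 as each library was left out. Summing each near-identical pair (GW-516, RNF2 shRNA1, Scramble) to 1 sample lowered the genes called to 4911 in PRT4165 against Scramble, against 7695 otherwise, to 4902 against 7772 for the libraries labelled RNF2 shRNA2 against Scramble, and to 4555 against 7594 for GW-516 against PRT4165; the fit then has fewer samples. The count of members higher in the libraries labelled RNF2 shRNA2 than in RNF2 shRNA1 was 1 in place of 2 with an adjusted p below 0.01 and with pairs summed, and lay between 1 and 2 as each library was left out. The replicate numbers did not pair the libraries, since the differences between replicates of any 2 groups correlated between -0.087 and 0.016 over 13104 genes. A fit with the replicate number as a block called 9992, 7630, 7517 and 10124 genes in RNF2 shRNA1, the libraries labelled RNF2 shRNA2, PRT4165 and GW-516 against Scramble, 10838 between hairpins and 7419 between compounds, and changed no member's call. COL17A1 is limited by depth, with 136 counts in its lowest library. Ratios were recomputed for each library alone, an alternative chosen after seeing the data.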

Other observations

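Proteases that trim laminin-332 chains were listed too, 4 of 5 being testable. Against Scramble, 1 was higher and 3 lower in RNF2 shRNA1, and none higher and 2 lower in the libraries labelled RNF2 shRNA2. In PRT4165 2 were higher and 2 lower, and in GW-516 2 were higher and 1 lower. Of all genes, 54.7%, 42.1%, 41.6% and 55.5% were called in that order. MMP14, a membrane-bound protease, averaged 58.0 CPM in RNF2 shRNA1, 30.6 CPM in the libraries labelled RNF2 shRNA2, 72.2 CPM in PRT4165, 74.9 CPM in GW-516 and 45.2 CPM in Scramble, and each of the 4 groups differed from Scramble by edgeR. TLL1, a relative of BMP1, was lower than Scramble in all 4, at 24.2, 33.2, 26.6 and 26.9 CPM in the same order, against 48.0 CPM in Scramble. BMP1, which trims laminin-332 chains outside the cell, rose by 0.36 in PRT4165 and by 0.61 in GW-516 on the log2 scale, and fell by 0.29 in RNF2 shRNA1.

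Of 8 laminin and collagen receptors that are not integrins, 3 were higher and 5 lower in RNF2 shRNA1, 2 higher and 4 lower in the libraries labelled RNF2 shRNA2, 5 higher and 1 lower in PRT4165, and 4 higher and 3 lower in GW-516, each against Scramble. Of all genes, 54.7%, 42.1%, 41.6% and 55.5% were called in that order. SDC4, a syndecan that works with integrins, rose by 0.41 in PRT4165 and by 0.41 in GW-516, and fell by 0.083 in RNF2 shRNA1 and by 0.48 in the libraries labelled RNF2 shRNA2. CD44, a receptor for hyaluronan, rose by 0.21, 0.079, 0.14 and 0.40 in RNF2 shRNA1, the libraries labelled RNF2 shRNA2, PRT4165 and GW-516. BCAM, a receptor for the laminin alpha5 chain, averaged 45.5 CPM in RNF2 shRNA1, 14.7 CPM in the libraries labelled RNF2 shRNA2 and 31.1 CPM in Scramble. SDC1, another syndecan, averaged 113 CPM in RNF2 shRNA1, 224 CPM in the libraries labelled RNF2 shRNA2 and 198 CPM in Scramble. DDR1, a collagen-binding kinase, rose by 0.69 in GW-516 and fell by 0.57 in the libraries labelled RNF2 shRNA2.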
